A study of Mus musculus with 10 samples.

Results

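The collagen genes were taken as all genes whose symbol in the deposited tables consists of Col, a type number, the letter a and a chain number, such as Col1a1. This rule found 42 of the 24306 genes measured, spread over 15 chromosomes, and 6 other symbols that start with Col were left out. The rule used symbols alone and no measured value. All 42 were protein-coding genes in GENCODE M21, the annotation on the same genome build (GRCm38) as the deposited data.

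Collagens are the main structural proteins of extracellular matrix. Each chain holds runs of a glycine followed by a pair of other residues, and chains wind into a triple helix. Fibrillar collagens (types I, II, III, V, XI, XXIV and XXVII) form the fibrils of connective tissue, and type IV collagen forms the sheet of the basement membrane. Type VI forms beaded filaments around cells. Fibril-associated, short-chain, transmembrane and multiplexin collagens carry interrupted or short helices and link or organise the other networks. In the ovary, stroma and theca are rich in fibrillar collagen, and a basement membrane with type IV chains surrounds each follicle and vessel.

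PolyA RNA of whole ovaries was sequenced from 6-week-old mice of mixed strain (C57BL/6; 129 Mixed). Every mouse, controls included, was homozygous for floxed alleles (f/f) of Rara, Rarb and also Rarg, which encode the retinoic acid receptors. The 5 controls were Dmrt1 +/+ and Sf1-Cre-, and the 3 Rar mutants were Dmrt1 +/+ and Sf1-Cre+. The 2 Dmrt1 het Rar mutants were Dmrt1 fl/+ and Sf1-Cre+, Dmrt1 being a regulator of gonadal sex. Sf1-Cre expresses the recombinase under Nr5a1 control, in gonadal somatic cells, so receptors in other cells of the ovary, such as oocytes, are not targeted. The series' title concerns the need for retinoic acid signalling in somatic cells of the ovary. The design text speaks of 2 genotypes with 5 replicates apiece, a number reached here only by pooling both kinds of Cre-positive ovary. Nothing in the labels names separate animals beyond a different number in each title, so p-values measure the spread between these libraries. In whole ovaries, fewer cells of a type and less RNA per cell cannot be told apart.

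Total counts ran from 21064856 to 25920131 per library, and 3 counts, the limit that a count of 0 leaves by counting error alone, equal 0.116 to 0.142 CPM, counts scaled to the library total. Whole-gene counts of Rarg were 25.2 to 33.1 CPM in controls, 14.9 to 19.0 CPM in Rar mutants and 21.4 and 23.8 CPM in Dmrt1 het Rar mutants, while the ranges of Rara and Rarb in the Cre-positive groups overlapped those of the controls. Of Dmrt1, 5 counts were found in Dmrt1 het Rar mutant 2 and 0 in the other 9 libraries. Ovarian cell types were present by their markers, with summed levels of 1707 to 4123 CPM for 6 granulosa cell genes and 139 to 493 CPM for 5 oocyte genes. Of 5 cartilage and bone markers in the table, which sum to 3.61 to 6.87 CPM, Matn1 reached at most 0.386 CPM. The titles carry numbers, and 4 libraries have numbers under 7800, namely both Dmrt1 het Rar mutants, Rar mutant 1 and control 1. Genes with long exons ran higher in them than in the other 6. For that reason, known before the comparisons, these 4 libraries are shown apart below. Both Dmrt1 het libraries belong to them, so a difference of that group is partly confounded with the title-number set.

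Collagen transcripts took 0.338% ± 0.06 (SD, n = 5) of all counts in controls, 0.386% ± 0.088 (SD, n = 3) in Rar mutants, and 0.304% and 0.395% in the Dmrt1 het Rar mutants. The ranges of all groups overlapped. Levels of single genes were compared as FPKM, library-scaled fragments per kilobase, which divide by the summed exon length of the gene. In the control mean, 8 collagen genes were above 10 FPKM, 18 lay between 1 and 10, and 16 were under 1. The 7 highest genes, all chains of types I, III, IV and VI, held 75.3% of the collagen FPKM. Ranges over the control libraries overlapped for 40 of 41 neighbouring pairs in the ranking, the exception being Col6a2 above Col9a2. Such overlap does not compare the genes within a library. Col4a1 and Col4a2, for instance, overlapped in range, but Col4a1 was the higher in every library (ratio of 1.47 to 1.72). When the length of the longest coding transcript was used in place of all exons, Col3a1 (115.5) came before Col6a1 (90.7), and Col26a1 went from rank 29 to rank 22.

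**Figure D1:**
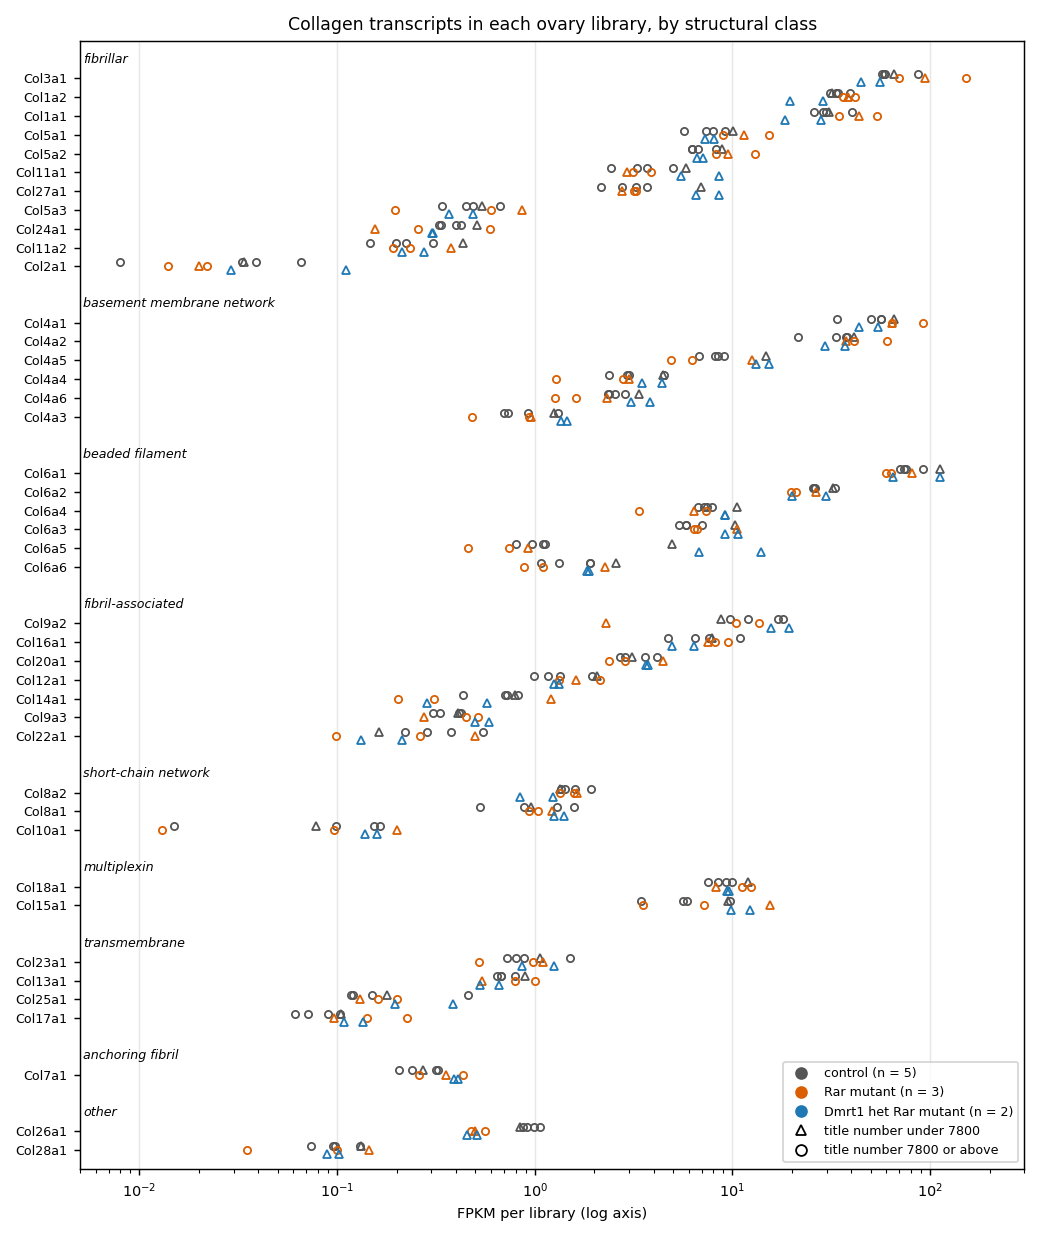
FPKM of each of the 42 collagen genes (log axis) in every library, grouped by structural class and ordered by control mean within a class. Colours give the 3 groups and triangles the 4 libraries with title numbers under 7800. Levels span from Col2a1, at 0.036 FPKM in the control mean, to Col6a1, at 84.9 FPKM. Libraries of all Cre-positive ovaries and of controls overlap for every gene but Col26a1. Between the mutant groups 21 of 42 genes do not overlap, beside 36.4% of all genes.

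The fibrillar class was led by the chains of types III and I, the main fibrils of stroma. Col3a1 measured 65.8, 86.8, 58.3, 59.0 and 57.3 FPKM in controls 1 to 5, 94.6, 152 and 69.3 in Rar mutants 1 to 3, and 45.0 and 55.7 in Dmrt1 het Rar mutants 1 and 2. For Col1a1, the FPKM of controls 1 to 5 were 30.7, 40.2, 29.6, 28.6 and 25.9, those of Rar mutants 1 to 3 were 43.8, 54.2 and 34.7, and those of Dmrt1 het Rar mutants 1 and 2 were 18.4 and 28.1. Col1a2 measured 31.9, 39.5, 34.2, 33.4 and 31.1 FPKM in controls 1 to 5, 38.5, 41.8 and 36.2 in Rar mutants 1 to 3, and 19.5 and 28.6 in Dmrt1 het Rar mutants 1 and 2. Rar mutant 2 was the highest library for all 3 of these genes, and Dmrt1 het Rar mutant 1 was the lowest. Type I collagen is a trimer of Col1a1 and Col1a2 chains, and the ratio of Col1a1 to Col1a2 FPKM within a library ran from 0.833 to 1.29. The ratio of Col3a1 to Col1a1 ran from 1.97 to 2.80. Col2a1, the fibrillar collagen that defines cartilage, had 1 to 16 counts per library and 0.036 FPKM in the control mean, the lowest of all members.

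Among basement membrane chains, Col4a1 and Col4a2, which make up the network present in nearly all basement membranes, were the highest. For Col4a1, the FPKM of controls 1 to 5 were 65.6, 56.3, 33.8, 56.1 and 50.3, those of Rar mutants 1 to 3 were 64.1, 92.3 and 64.1, and those of Dmrt1 het Rar mutants 1 and 2 were 43.9 and 54.6. Col4a2 measured 41.4, 37.8, 21.5, 38.0 and 33.4 FPKM in controls 1 to 5, 37.4, 60.4 and 41.3 in Rar mutants 1 to 3, and 29.4 and 37.1 in Dmrt1 het Rar mutants 1 and 2. Rar mutant 2 was again the highest library and control 3 the lowest for both. Each chain ranged 2.73-fold or more over the 10 libraries, while the ratio of Col4a1 to Col4a2 stayed between 1.47 and 1.72. The genes lie head to head on opposite strands of chromosome 8, and their annotated spans overlap (gap of -22 bp). The other type IV pairs are arranged alike, with 71 bp between Col4a4 and Col4a3 on chromosome 1 and 1308 bp between Col4a6 and Col4a5 on the X chromosome. Their ratios were less even, from 0.240 to 0.416 for Col4a3 to Col4a4 and from 0.185 to 0.352 for Col4a6 to Col4a5. The second of these was 0.297 ± 0.046 (SD, n = 5) in controls and 0.224 on average in the libraries with title numbers under 7800, against 0.296 in the others. It was 0.234 ± 0.043 (SD, n = 3) in Rar mutants and 0.241 ± 0.011 (SD, n = 2) in Dmrt1 het Rar mutants. Rar mutants 2 and 3, which have higher title numbers, were at 0.259 and 0.260, below controls 2 to 5 (0.277 to 0.352). The split was not particular to this pair. These libraries also lay above controls 2 to 5 for Col4a3 to Col4a4 (0.377 and 0.334 against 0.240 to 0.310). The same held for Col6a3 to Col6a1 (0.0999 and 0.111 against 0.0584 to 0.0957). They lay below for Col6a2 to Col6a1 (0.327 and 0.332 against 0.338 to 0.365). Such splits of few libraries were not tested.

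Type VI collagen is assembled from Col6a1, Col6a2 and a longer chain, Col6a3 or the related Col6a4, Col6a5 or Col6a6. Col6a1 measured 112, 91.9, 73.6, 75.9 and 70.8 FPKM in controls 1 to 5, 80.7, 63.8 and 59.7 in Rar mutants 1 to 3, and 65.2 and 112 in Dmrt1 het Rar mutants 1 and 2. For Col6a2, the FPKM of controls 1 to 5 were 32.2, 33.1, 26.3, 25.7 and 25.8, those of Rar mutants 1 to 3 were 26.5, 20.9 and 19.8, and those of Dmrt1 het Rar mutants 1 and 2 were 19.9 and 29.7. Control 1 and Dmrt1 het Rar mutant 2 were the highest libraries for Col6a1, and ranges of all groups overlapped for both chains. The ratio of Col6a2 to Col6a1 ran from 0.266 to 0.365, and that of Col6a3 to Col6a1 from 0.058 to 0.163. The lowest ratio of Col6a3 to Col6a1 was in control 2 and the highest in Dmrt1 het Rar mutant 1.

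**Figure D2:**
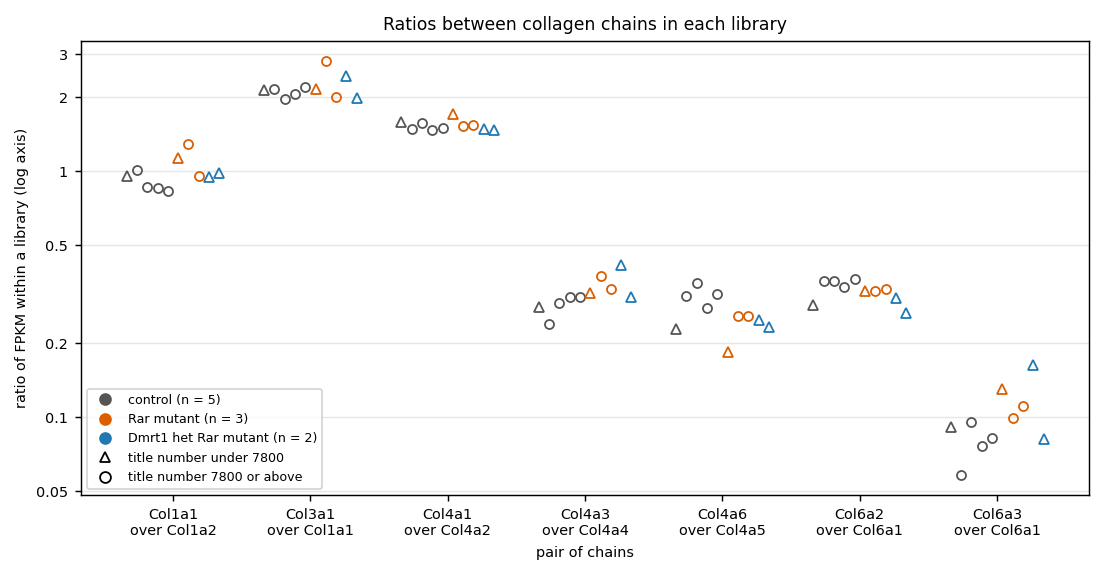
Ratio of the FPKM of 1 collagen chain to another within each library (log axis) for 7 pairs of chains, with 1 point per library, coloured by group, and triangles for title numbers under 7800. Col4a1 over Col4a2 keeps within 1.47 to 1.72, a 1.17-fold range, whereas Col6a3 over Col6a1 spans 2.80-fold.

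The fibril-associated collagens, which sit on fibrils, were led by Col9a2 and Col16a1. For Col9a2, the FPKM of controls 1 to 5 were 8.72, 9.71, 16.9, 12.0 and 18.1, those of Rar mutants 1 to 3 were 2.31, 10.4 and 13.6, and those of Dmrt1 het Rar mutants 1 and 2 were 19.3 and 15.6. Rar mutant 1 was far below the other 9 libraries for this gene. The same library had the lowest summed level of 5 oocyte markers, 139 CPM against 299 to 493 CPM in the others, and the part of these cells in the Col9a2 value was not tested. Col16a1 measured 7.92, 10.9, 7.58, 6.47 and 4.73 FPKM in controls 1 to 5, 7.55, 9.55 and 8.19 in Rar mutants 1 to 3, and 4.96 and 6.41 in Dmrt1 het Rar mutants 1 and 2. The short-chain collagens Col8a2 and Col8a1 form the hexagonal lattice known from corneal and vessel membranes. For Col8a2, the FPKM of controls 1 to 5 were 1.34, 1.36, 1.93, 1.43 and 1.60, those of Rar mutants 1 to 3 were 1.64, 1.34 and 1.58, and those of Dmrt1 het Rar mutants 1 and 2 were 0.846 and 1.24. Col8a1 measured 0.960, 1.58, 0.526, 0.883 and 1.30 FPKM in controls 1 to 5, 1.22, 0.940 and 1.04 in Rar mutants 1 to 3, and 1.41 and 1.25 in Dmrt1 het Rar mutants 1 and 2. Both stayed between 0.526 and 1.93 FPKM, with Col8a2 lowest in Dmrt1 het Rar mutant 1 and Col8a1 lowest in control 3. The multiplexins Col18a1 and Col15a1 are proteoglycans of basement membrane zones whose C-terminal fragments include endostatin. For Col18a1, the FPKM of controls 1 to 5 were 12.0, 8.40, 7.53, 9.31 and 9.96, those of Rar mutants 1 to 3 were 8.21, 12.4 and 11.2, and those of Dmrt1 het Rar mutants 1 and 2 were 9.35 and 9.62. Col15a1 measured 9.46, 9.69, 3.44, 5.87 and 5.62 FPKM in controls 1 to 5, 15.4, 7.21 and 3.51 in Rar mutants 1 to 3, and 9.89 and 12.3 in Dmrt1 het Rar mutants 1 and 2. Col18a1 varied 1.64-fold over all libraries, the least of the 42 genes, and Col15a1 varied 4.49-fold.

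Transmembrane collagens anchor in the plasma membrane, and the highest were Col23a1 and Col13a1. For Col23a1, the FPKM of controls 1 to 5 were 1.07, 1.51, 0.802, 0.725 and 0.883, those of Rar mutants 1 to 3 were 1.11, 0.522 and 0.975, and those of Dmrt1 het Rar mutants 1 and 2 were 0.859 and 1.26. Col13a1 measured 0.889, 0.674, 0.643, 0.675 and 0.797 FPKM in controls 1 to 5, 0.539, 0.998 and 0.791 in Rar mutants 1 to 3, and 0.526 and 0.661 in Dmrt1 het Rar mutants 1 and 2. The groups overlapped for both. Col7a1 is the chain of anchoring fibrils, which tie epithelial basement membranes to the stroma below. For Col7a1, the FPKM of controls 1 to 5 were 0.272, 0.317, 0.323, 0.238 and 0.205, those of Rar mutants 1 to 3 were 0.356, 0.259 and 0.434, and those of Dmrt1 het Rar mutants 1 and 2 were 0.410 and 0.389. Rar mutant 3 was highest and control 5 lowest. Col28a1, a collagen with von Willebrand factor domains, was among the lowest members. Col28a1 measured 0.132, 0.130, 0.074, 0.095 and 0.098 FPKM in controls 1 to 5, 0.145, 0.1 and 0.035 in Rar mutants 1 to 3, and 0.102 and 0.089 in Dmrt1 het Rar mutants 1 and 2. Rar mutant 3 was the lowest library for Col28a1. Widest over the 10 libraries were Col6a5 (30.5-fold between highest and lowest), Col10a1 (15.5-fold), Col2a1 (13.9-fold) and Col9a2 (8.37-fold). The first and the last of these are described with the comparisons below, while Col10a1 and Col2a1 rest on values of at most 0.202 FPKM.

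The genes share an exon pattern that the symbol rule did not use. Of 1833 internal coding exons of the longest coding transcripts, 440 (24%) were exactly 54 bp, which encodes 6 repeats of the collagen triplet, against 657 of 145941 (0.450%) in 16971 other protein-coding genes of the table. Lengths divisible by 9 bp, the size of 1 triplet, made up 63.6% of collagen exons and 13.7% of the others. The pattern was densest in the fibrillar class, with 48.6% of exons at 54 bp, and lower in type IV genes (4.23%) and multiplexins (5.20%). The 3 short-chain genes had 0 internal coding exons, and Col26a1 had 0 exons of 54 bp among 11. Summed exon length had a median of 7727 bp in collagen genes and 3062 bp in all genes. Exons of 13 members overlapped those of another annotated gene, among them Col4a3 with C430014B12Rik (563 bp, opposite strand), Col9a3 with Tcfl5 (234 bp, opposite strand) and Col20a1 with 9230112E08Rik (79 bp, same strand). Whether strand was used in counting is not given in the sources used here, so values of these genes may include reads of the partner.

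The first comparison set all 5 Cre-positive ovaries against the 5 controls and asked which genes differ where the receptors are targeted. Of 41 collagen genes that passed the filter on low counts, 1 was called, lower, and 0 higher (edgeR quasi-likelihood test, Benjamini-Hochberg adjusted p under 0.05 over all genes). This is 2.44% of the members, against 0.111% called among all 18954 genes tested (21 genes). Col2a1 did not pass the filter. The called gene was Col26a1, which encodes an extracellular protein with short collagen domains and an N-terminal EMI domain, known from testis and ovary (chromosome 5, 136741759 to 136883209, minus strand). For Col26a1, the FPKM of controls 1 to 5 were 0.838, 0.877, 1.07, 0.913 and 0.995, those of Rar mutants 1 to 3 were 0.497, 0.557 and 0.477, and those of Dmrt1 het Rar mutants 1 and 2 were 0.511 and 0.452. Every Cre-positive library was below every control, and the counts behind these values were 169 to 204 in controls and 85 to 111 in Cre-positive ovaries. The log2 fold change was -0.91 (SE 0.14, adjusted p = 0.0414 by edgeR), and DESeq2 gave -0.91 (adjusted p = 6.70e-07).

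Col26a1 was also the 1 gene of 42 whose Cre-positive and control libraries did not overlap in FPKM, which is 2.38% of members and 1.61% of all 24217 genes with a count. With the title-number set as a term in the fit, Col26a1 kept its call (log2 fold change -0.86, edgeR adjusted p = 0.0487) and was again the 1 member called of 41, against 0.211% of all genes. DESeq2 called the same 1 of 42 collagen genes, against 0.835% of all genes it tested. The edgeR call was lost without any 1 of 9 libraries (adjusted p from 0.0935 to 0.151) and held only without control 1, while the fold change stayed between -0.96 and -0.86. It was also lost with an offset for exon length (-1.02, edgeR adjusted p = 0.0808), without the filter on low counts (adjusted p = 0.0543), with the title-number term and the offset together (adjusted p = 0.0602) and in the libraries with higher title numbers alone (-0.90, adjusted p = 0.107). Over all genes the number of calls was 5 to 16 in the settings without 1 of those 9 libraries and 52 without control 1, in place of 21. Summed levels of each of the 11 marker lists overlapped between controls and Cre-positive ovaries, but some lists moved with Col26a1. All 5 surface epithelium markers were below 0, with a median log2 fold change of -0.95, and so were all 5 oocyte markers, with a median of -0.42, none of them called by edgeR or DESeq2. Surface epithelium markers were Krt7, Krt19, Msln, Upk3b and Lrrn4, none at 0 in any library. Their sums were 150 to 364 CPM in controls and 84.3 to 213 CPM in Cre-positive ovaries. Single markers of other lists were lower in every Cre-positive library than in every control, like Col26a1. Epcam of the oviduct list was at 1.19 to 6.39 against 13.3 to 40.6 CPM. Endothelial Cldn5 was at 17.3 to 23.9 against 32.2 to 37.2 CPM, and stromal Tcf21 at 34.8 to 47.2 against 51.1 to 64.4 CPM. DESeq2 called 1 endothelium and 1 stromal marker lower, while 1 of 6 and 3 of 6 in these lists were above 0. The part of these cell types in the Col26a1 value was not tested.

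Over all 41 members, Col26a1 included, the median log2 fold change was 0.05, against 0.00 over all genes, with 23 members above 0. The uncalled genes of smallest p were Col17a1, Col7a1 and Col6a2. Col17a1, the transmembrane collagen of hemidesmosomes, was near the detection limit. Col17a1 measured 0.105, 0.090, 0.071, 0.061 and 0.104 FPKM in controls 1 to 5, 0.096, 0.142 and 0.226 in Rar mutants 1 to 3, and 0.109 and 0.136 in Dmrt1 het Rar mutants 1 and 2. It had a log2 fold change of 0.70 (SE 0.30, edgeR adjusted p = 0.580). Col7a1 was at 0.45 (edgeR adjusted p = 0.593) and Col6a2 at -0.29 (edgeR adjusted p = 0.635). None of these 3 passed the test, and their control and Cre-positive libraries overlapped.

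**Figure D3:**
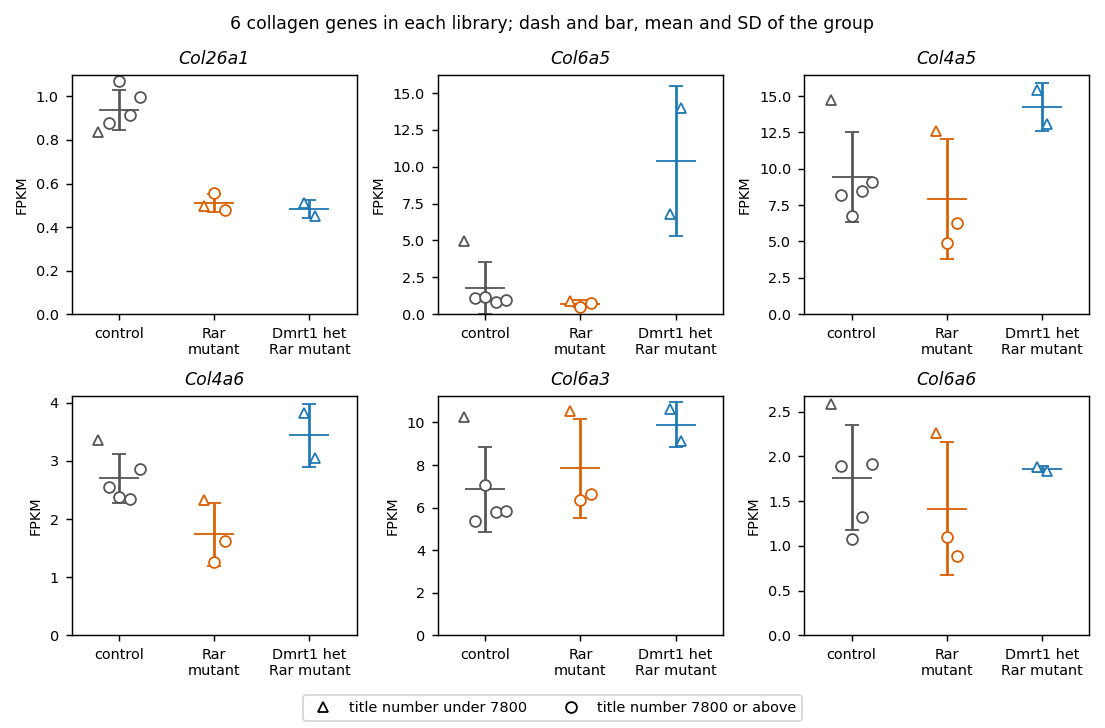
FPKM of Col26a1, Col6a5, Col4a5, Col4a6, Col6a3 and Col6a6 in each library by group. Dashes and bars are the group mean and SD, and triangles are title numbers under 7800. Col26a1 lies between 0.838 and 1.07 in controls and between 0.452 and 0.557 in all Cre-positive libraries. In the Col4a5 and Col6a3 panels the triangles lie above all circles.

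The 3 Rar mutants were next compared with the 5 controls in a fit of all 3 groups, so this contrast and that of the Dmrt1 het Rar mutants share their controls. edgeR called 0 of 41 collagen genes, against 0.00972% of all 20570 genes (2 genes), while 7 members and 1944 of all genes were at an unadjusted p under 0.05. DESeq2 called 1 of 41 (Col26a1, adjusted p = 0.000247), against 1.84% of all genes. With the title-number term edgeR called 0 of 41, against 0.413% of all genes. Col26a1 was lower by the same size as in the pooled comparison, with a log2 fold change of -0.89 (SE 0.17, edgeR adjusted p = 0.104). Col26a1 and Col4a6 were the 2 of 42 members (4.76%) without overlap between these groups, a share found in 4.85% of all genes.

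Col4a6 encodes a type IV chain of smooth muscle and some epithelial basement membranes. For Col4a6, the FPKM of controls 1 to 5 were 3.37, 2.54, 2.38, 2.35 and 2.87, those of Rar mutants 1 to 3 were 2.33, 1.26 and 1.62, and those of Dmrt1 het Rar mutants 1 and 2 were 3.82 and 3.05. Its log2 fold change in Rar mutants was -0.65 (SE 0.21, edgeR adjusted p = 0.336). Fibrillar chains of types I, III and V lay in the other direction in these 3 libraries. Values were 0.68 for Col3a1 (SE 0.25, edgeR adjusted p = 0.384), 0.56 for Col5a1, 0.51 for Col1a1 and 0.50 for Col5a2, each a log2 fold change that did not pass the test. Col5a2 measured 8.85, 8.22, 6.24, 6.69 and 6.22 FPKM in controls 1 to 5, 9.47, 13.0 and 8.30 in Rar mutants 1 to 3, and 7.14 and 6.62 in Dmrt1 het Rar mutants 1 and 2. Col5a2 and Col5a1 chains join type I fibrils and limit their width. Col17a1 had a value of 0.82 (edgeR adjusted p = 0.501). Of the 10 fibrillar genes tested, 7 were above 0, with a median of 0.17 (5 of 10 and 0.09 with the title-number term). Of the 6 type VI genes 1 was above 0, with a median of -0.35 (1 and -0.47 with the term). Of the 6 type IV genes 2 were above 0, with a median of -0.30 (2 and -0.43 with the term). The median over all genes was -0.02 (-0.03 with the term). With the term, 13 members and 2879 of all genes were at an unadjusted p under 0.05. In the higher title numbers alone, these were 14 members and 2886 of 19610 genes. Without Rar mutant 2, which held the highest levels of Col3a1 (152 FPKM), Col5a1 (15.4 FPKM) and Col5a2 (13.0 FPKM), 1 member was at an unadjusted p under 0.05 in place of 7 (1674 of all genes in place of 1944), and without Rar mutant 1 there were 12 (3192 of all genes). In Rar mutant 2 the stromal markers summed to 718 CPM and the smooth muscle markers to 962 CPM, within the ranges of the controls (589 to 1172 and 504 to 983 CPM). Over the 3 Rar mutants, 3 of 6 stromal markers and 6 of 6 smooth muscle markers were above 0 (medians 0.17 and 0.41, none called by edgeR). All 6 granulosa, all 4 theca and all 5 surface epithelium markers were below 0 (medians -0.61, -0.51 and -0.62, none called by edgeR), beside the negative values of Col4a6 and type VI genes. The part of these cells in the collagen values was not tested.

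The same fit set the 2 Dmrt1 het Rar mutants against the controls. edgeR called 0 of 41 collagen genes, against 0.0194% of all genes (4 genes), with 6 members and 3563 of all genes at an unadjusted p under 0.05. With the title-number term it called 0 of 41, against 0.00486% of all genes. DESeq2 called 2 of 38, Col26a1 (-0.96, adjusted p = 0.0013) and Col6a5 (2.54, adjusted p = 0.0112), against 1.92% of all genes it tested. FPKM did not overlap between these groups for 11 of 42 members (26.2%), as for 26% of all genes. Col26a1 had a log2 fold change of -0.96 (SE 0.20, edgeR adjusted p = 0.209) and, against the Rar mutants, of -0.07 (SE 0.21, edgeR adjusted p = 0.875). Surface epithelium markers did not overlap between Dmrt1 het Rar mutants and controls (84.3 to 108 against 150 to 364 CPM). Of these, 5 of 5 were below 0 with a median of -1.47, and DESeq2 called 3 lower and edgeR 0. Sums of oviduct epithelium markers did not overlap either (4.41 to 8.02 against 16.9 to 42.8 CPM). Neither did those of cartilage and bone markers (3.61 to 3.94 against 4.02 to 6.87 CPM). All 6 stromal and all 6 smooth muscle markers were below 0 as well (medians -0.45 and -0.56, none called by edgeR). These medians became -0.60 and -0.055 with the title-number term, where 0 stromal and 3 smooth muscle markers were above 0. Their part in the collagen values was not tested.

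Col6a5 is a long type VI chain known from skin (chromosome 9, 105856078 to 105960643, minus strand). Col6a5 measured 4.96, 1.10, 1.13, 0.801 and 0.974 FPKM in controls 1 to 5, 0.926, 0.458 and 0.737 in Rar mutants 1 to 3, and 6.79 and 14.0 in Dmrt1 het Rar mutants 1 and 2. Control 1 and both Dmrt1 het libraries stood above the other 7, and all 3 have title numbers under 7800, but Rar mutant 1, the fourth library of that set, did not. The log2 fold change in Dmrt1 het Rar mutants was 2.53 (SE 0.62, edgeR adjusted p = 0.243). Without control 1 the value was 3.38 and Col6a5 was called (edgeR adjusted p = 0.00462), as were Col27a1 (1.35, adjusted p = 0.0301) and Col26a1 (-0.996, adjusted p = 0.0482), 3 of 42 members where 364 of 20470 genes were called. With the title-number term Col6a5 was at 1.54 (edgeR adjusted p = 0.726) and Col27a1 at 0.56 (adjusted p = 0.832), and without Dmrt1 het Rar mutant 2 Col6a5 was at 1.93. Col27a1, a fibrillar chain of cartilage matrix, had a log2 fold change of 1.004 (SE 0.35, edgeR adjusted p = 0.244) with all libraries. For Col27a1, the FPKM of controls 1 to 5 were 6.91, 2.17, 3.70, 2.78 and 3.25, those of Rar mutants 1 to 3 were 2.78, 3.19 and 3.26, and those of Dmrt1 het Rar mutants 1 and 2 were 6.57 and 8.51. The 3 highest libraries were again control 1 and both Dmrt1 het Rar mutants. Col11a1, a minor chain of thin fibrils, had a value of 0.79, Col1a2 a value of -0.50 and Col8a2 a value of -0.55, with edgeR adjusted p from 0.252 to 0.273.

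Setting the 2 Dmrt1 het Rar mutants against the 3 Rar mutants tests the difference between the mutant groups. edgeR called 0 of 41 collagen genes and 0% of all genes, with 12 members and 3467 genes at an unadjusted p under 0.05. The same counts of 0 and 0% held with the title-number term. DESeq2 called 5 of 38, against 3.66% of all genes it tested: Col1a1, Col1a2 and Col3a1 lower and Col4a6 and Col6a5 higher in Dmrt1 het Rar mutants. FPKM did not overlap for 21 of 42 members (50%), against 36.4% of all genes. Of 10 fibrillar genes, 8 were below 0 and 7 were at an unadjusted p under 0.05. The chains of types I, III and V had negative values, with log2 differences of -1.06 for Col3a1 (SE 0.33, edgeR adjusted p = 0.214), -0.92 for Col1a1, -0.68 for Col1a2, -0.63 for Col5a1 and -0.57 for Col5a2. Col27a1 (1.30) and Col11a1 (1.10), also fibrillar, had positive values. Both Dmrt1 het libraries were below all 3 Rar mutants for Col1a1, Col1a2, Col3a1, Col5a1 and Col5a2. All 6 stromal and all 6 smooth muscle markers were also below 0 in this contrast, with medians of -0.67 and -0.99 and none called by edgeR. These medians became -0.87 and -0.38 with the title-number term, where 1 stromal and 0 smooth muscle markers were above 0. Stromal markers summed to 532 to 619 CPM in Dmrt1 het Rar mutants and 539 to 1232 CPM in Rar mutants, and their part in the fibrillar values was not tested.

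In the basement membrane class the same contrast gave values of 0.997 for Col4a6 (SE 0.26, edgeR adjusted p = 0.203), 0.86 for Col4a5 and 0.84 for Col4a3. In the type VI class it gave 3.89 for Col6a5 (SE 0.76, edgeR adjusted p = 0.144) and 0.70 for Col6a4. Without control 1 edgeR called Col6a5 (3.89, adjusted p = 0.0158), and without Rar mutant 1 it called Col4a6 (1.27, adjusted p = 0.0374). Over all genes these settings gave 1 call of 20470 and 335 calls of 20462. With the title-number term the values were lower, at 2.75 for Col6a5 (edgeR adjusted p = 0.332), 0.43 for Col6a4, 0.67 for Col4a6, 0.30 for Col4a5 and 0.56 for Col4a3. The type VI class then had 3 of 6 genes above 0 in place of 6 (median 0.03 in place of 0.40), and the type IV median was 0.37 in place of 0.80. All 6 granulosa and all 4 theca markers were above 0 in this contrast (medians 0.65 and 0.49, none called by edgeR), and their part in these values was not tested. The median over all 41 members was 0.16, against -0.01 over all genes, and it was -0.20 with the title-number term and the length offset together.

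**Figure D4:**
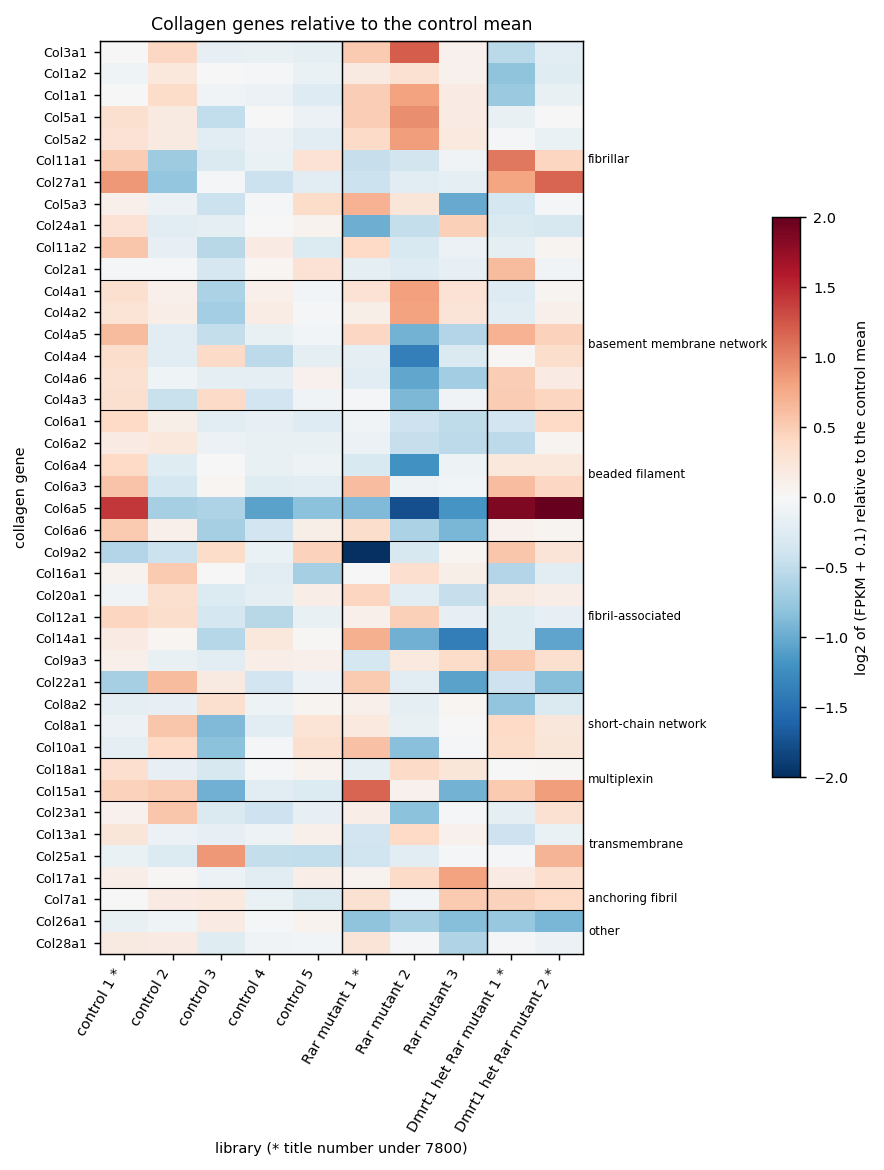
Collagen genes (by class) in each library (columns) as the log2 of FPKM + 0.1 relative to the control mean, with colours limited at 2 on both sides (passed by Col6a5 in Dmrt1 het Rar mutant 2 and Col9a2 in Rar mutant 1) and asterisks for title numbers under 7800. Blue cells for Col26a1 in all Cre-positive columns, the red cells of Col3a1, Col1a1, Col5a1 and Col5a2 in Rar mutant 2, and the dark cells of Col6a5 and of Col9a2 in Rar mutant 1 stand out.

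The libraries with title numbers under 7800 were then set against those with higher numbers, with the 3 groups as a term, so that the difference rests on control 1 against controls 2 to 5 and on Rar mutant 1 against Rar mutants 2 and 3. edgeR called 5 of 41 collagen genes, all higher in the lower numbers. This is 12.2%, close to the 11.7% of all genes called (2414 of 20570), so the count says nothing particular about collagens. DESeq2 called 9 of 42, of which 8 were higher, against 18.6% of all genes it tested. FPKM did not overlap between the sets for 2 of 42 members, Col4a5 and Col6a3 (4.76%), against 19.8% of all genes.

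Col4a5 encodes a type IV chain of the glomerular and of smooth muscle basement membranes. For Col4a5, the FPKM of controls 1 to 5 were 14.7, 8.18, 6.75, 8.47 and 9.06, those of Rar mutants 1 to 3 were 12.6, 4.87 and 6.24, and those of Dmrt1 het Rar mutants 1 and 2 were 15.4 and 13.1. The 4 libraries with lower title numbers held 12.6 to 15.4 FPKM and the others 4.87 to 9.06. The log2 difference was 1.01 (SE 0.14, edgeR adjusted p = 0.00577). Col6a3, the long chain of most type VI collagen, showed the same split. Col6a3 measured 10.3, 5.37, 7.04, 5.80 and 5.86 FPKM in controls 1 to 5, 10.5, 6.37 and 6.62 in Rar mutants 1 to 3, and 10.6 and 9.14 in Dmrt1 het Rar mutants 1 and 2. Its lower-numbered libraries held 9.14 to 10.6 FPKM and the others 5.37 to 7.04, a log2 difference of 0.74 (SE 0.12, edgeR adjusted p = 0.00908). For Col6a6, the FPKM of controls 1 to 5 were 2.58, 1.89, 1.07, 1.33 and 1.91, those of Rar mutants 1 to 3 were 2.26, 1.10 and 0.884, and those of Dmrt1 het Rar mutants 1 and 2 were 1.88 and 1.83. For Col6a6, another long type VI chain, the sets overlapped and the log2 difference was 0.95 (SE 0.23, edgeR adjusted p = 0.0291). Col6a5 had 1.68 (SE 0.36, edgeR adjusted p = 0.0227) and Col4a6 0.54 (SE 0.15, edgeR adjusted p = 0.0492).

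The calls changed when single libraries were left out. Without control 1 the value of Col6a5 was 0.63 (edgeR adjusted p = 0.403) and 2 members were called, 1 of them lower, and without Rar mutant 1 that of Col4a5 was 0.87 (adjusted p = 0.0701) and 1 member was called in place of 5. Without control 4, Rar mutant 2 or either Dmrt1 het library, 3 were called. Calls over all genes changed as well, from 2414 to 217 without control 1, 118 without Rar mutant 1, and 1230 to 1299 without one of the other 4, so these drops are not particular to collagens. Among the uncalled genes, Col9a2 had -1.34 (edgeR adjusted p = 0.0555), with Rar mutant 1 as the low library. Col11a2, a minor fibrillar chain of cartilage, had 0.91 (adjusted p = 0.0639), and Col14a1, which binds fibrils of skin and tendon, had 1.25 (adjusted p = 0.1007). Col11a2 measured 0.433, 0.222, 0.147, 0.307 and 0.198 FPKM in controls 1 to 5, 0.375, 0.192 and 0.235 in Rar mutants 1 to 3, and 0.214 and 0.274 in Dmrt1 het Rar mutants 1 and 2. For Col14a1, the FPKM of controls 1 to 5 were 0.792, 0.721, 0.435, 0.826 and 0.711, those of Rar mutants 1 to 3 were 1.20, 0.310 and 0.204, and those of Dmrt1 het Rar mutants 1 and 2 were 0.572 and 0.285. In both, Rar mutant 1 was above the other 2 Rar mutants, while control 1 was the highest control for Col11a2 only. Col15a1 had a value of 1.06, Col6a1 of 0.46 and Col27a1 of 0.65, with edgeR adjusted p from 0.101 to 0.157, and the value of Col27a1 was -0.22 without control 1.

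Exon length moved with this difference over all genes. The sets were shown apart because long genes ran higher in the lower numbers. The trend therefore describes the split and does not test it, and the share of genes called between the sets is not independent of that choice. The median log2 difference rose from -0.36 in the shortest of 5 equal length classes of 4114 genes to 0.32 in the longest class, and 30 of 41 collagen genes lie in that class. Across genes, Spearman's rho of length with the difference was 0.374 over all genes and 0.106 over the 41 collagen genes, which share the same libraries. With an offset that removes the length trend from each library, the collagen median went from 0.29 to -0.04, and 1 of 41 members was called (Col4a5, 0.80, edgeR adjusted p = 0.0189), against 5.49% of all genes. Col6a5 (1.33), Col6a6 (0.62), Col6a3 (0.29) and Col4a6 (0.26) then had edgeR adjusted p from 0.0669 to 0.305. Surface epithelium markers moved with the sets as well, with sums of 84.3 to 150 CPM in the lower numbers and 204 to 364 CPM in the higher, and edgeR called 3 of 5 lower. Of 5 oocyte markers 3 were called lower as well. The part of these cells in the collagen values was not tested.

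**Figure D5:**
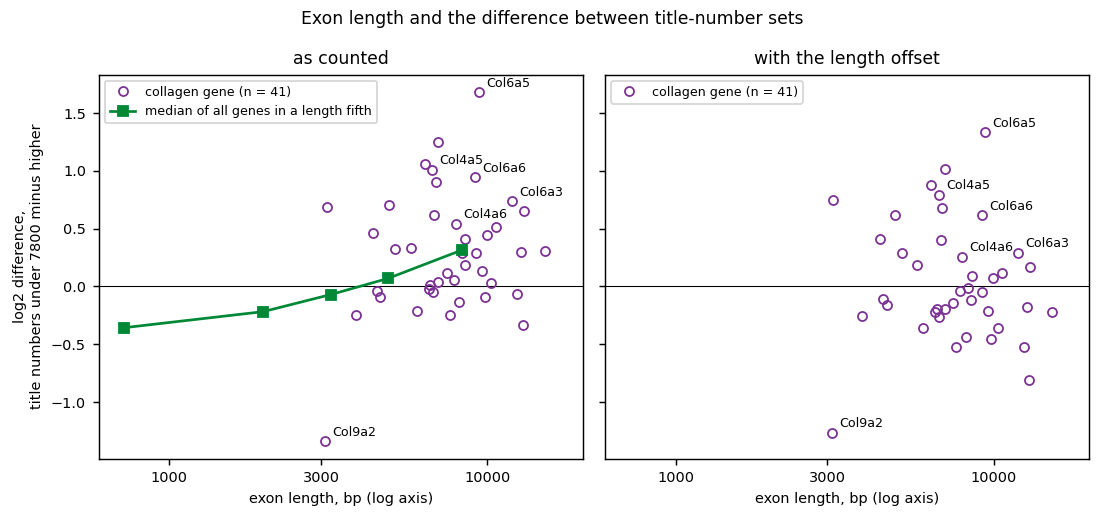
Log2 difference between libraries with title numbers under 7800 and higher numbers for 41 collagen genes, against summed exon length (log axis), as counted (left) and with an offset for the length trend (right). Squares give the median of all genes in each of 5 length classes, from -0.36 to 0.32. The collagen median goes from 0.29 to -0.04 with the offset. The highest values are then those of Col6a5 (1.33), Col14a1 (1.02), Col15a1 (0.88) and Col4a5 (0.80).

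Col4a5 and Col4a6, both called between the title-number sets, are transcribed away from each other on the X chromosome. The stretch upstream of each start is shown to compare the pair, from RefSeq on GRCm38.p6, 5′ to 3′ on the strand of each gene, ending before the first annotated exon. Capitals mark the motif CCAAT. The other motifs searched for were the GC box core GGGCGG, then the TATA box motif TATAAA, and the nuclear receptor core AGGTCA, all on either strand. Col4a5 is shown for chrX:141475169-141475369, plus strand, and Col4a6 for chrX:141474096-141474326, minus strand.
Col4a5: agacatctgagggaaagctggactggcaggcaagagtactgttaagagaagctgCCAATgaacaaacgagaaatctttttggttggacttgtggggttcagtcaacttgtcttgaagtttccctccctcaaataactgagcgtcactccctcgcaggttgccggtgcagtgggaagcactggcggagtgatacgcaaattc
Col4a6: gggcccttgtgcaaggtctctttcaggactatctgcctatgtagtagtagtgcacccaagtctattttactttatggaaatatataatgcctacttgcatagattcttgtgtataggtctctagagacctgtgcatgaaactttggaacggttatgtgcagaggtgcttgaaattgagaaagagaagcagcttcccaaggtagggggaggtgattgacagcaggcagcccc
The Col4a5 stretch of 201 bases was 49.8% G or C and held 1 CCAAT, and the Col4a6 stretch of 231 bases was 45.5% G or C and held 0 matches to these motifs. The full windows, which reach past the start, held GGGCGG for both genes. Windows of 300 bases, 250 before and 50 after a start, were in the RefSeq table for 33 of the 42 collagen genes. AGGTCA, the core of the site that retinoic acid receptors and other nuclear receptors bind, was found on either strand in the windows of 7 of these 33 genes, among them Col4a4, Col6a5 and Col7a1, and in 16.3% of all 32851 windows. Exact direct repeats of AGGTCA spaced by 1, 2 or 5 bases were found in 0 of the 33. These are the spacings known for retinoic acid response elements. Over all windows such repeats were found in 13, 3 and 3, too few for 0 of 33 to show whether response elements are absent. GGGCGG was found in 22 of 33 genes and in 35.7% of all windows, CCAAT in 12 of 33 and in 37.4%, and TATAAA in 5 of 33 and in 13.6%. These are matches of letters and not sites shown to be bound.

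Genes that make, export, cleave, cross-link, bind or degrade collagen were described from 9 lists, with 91 genes in the table. edgeR called 0 of 88 tested in all Cre-positive ovaries (13 at an unadjusted p under 0.05, DESeq2 1) and 0 of 89 in Rar mutants (13, DESeq2 2). It called 0 of 89 in Dmrt1 het Rar mutants (11, DESeq2 3) and 0 of 89 between the mutant groups (17, DESeq2 4). Over all genes, the numbers at an unadjusted p under 0.05 were 1605 of 18954 in the first comparison and 1944, 3563 and 3467 of 20570 in the others, and DESeq2 called 0.835%, 1.84%, 1.92% and 3.66%. The smallest p in Rar mutants was that of Adamts3, which encodes a protease that removes the N-terminal propeptide of procollagen. Adamts3 measured 0.224, 0.205, 0.126, 0.165 and 0.169 FPKM in controls 1 to 5, 0.436, 0.733 and 0.806 in Rar mutants 1 to 3, and 0.377 and 0.304 in Dmrt1 het Rar mutants 1 and 2. Every Cre-positive library was above every control. The log2 fold change of Adamts3 in Rar mutants was 1.87 (SE 0.28, edgeR adjusted p = 0.0557), and with the title-number term it was called (1.87, adjusted p = 0.0348). The headers of the authors' deposited table of 185 genes do not name the groups compared, which may differ from those of this contrast. Adamts3 is listed there with a log2 fold change of 1.48 and an adjusted p of 1.6e-05 (Wald test), while 0 collagen genes are listed.

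Lysyl oxidases cross-link collagen and elastin. All 5 measured members (Lox and Loxl1 to Loxl4) were above 0 in Rar mutants, with a median log2 fold change of 0.76 against -0.02 over all genes. All 5 were below 0 in Dmrt1 het Rar mutants against Rar mutants, with a median of -0.78 against -0.01, and none was called in either contrast by edgeR. Both contrasts use the same 3 Rar mutants. Lox measured 5.86, 3.48, 2.82, 4.89 and 2.85 FPKM in controls 1 to 5, 4.47, 16.3 and 7.11 in Rar mutants 1 to 3, and 6.32 and 4.46 in Dmrt1 het Rar mutants 1 and 2. Rar mutant 2 was the highest library for Lox and Loxl1 to Loxl3, as for Col1a1, Col1a2, Col3a1, Col5a1 and Col5a2, and Rar mutant 1 was the highest for Loxl4. In CPM, Loxl1 was at 35.3, 75.4 and 47.2 in Rar mutants 1 to 3 and at 32.7 to 50.4 in controls. Loxl2 was at 90.4, 236 and 114 CPM in Rar mutants 1 to 3 and at 76.3 to 131 CPM in controls. The adjusted p of Lox in Rar mutants was 0.301 by edgeR (log2 fold change 1.22).

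In the other lists the genes of smallest p in Rar mutants were as follows, none of them called by edgeR. Of 18 folding and modification genes, 12 were above 0 (median 0.10), with Colgalt2, a collagen galactosyltransferase, at -0.80 and P4ha2, a prolyl hydroxylase subunit, at 0.67. Of 6 secretion genes 5 were above 0 (median 0.23), with Creb3l1, a transcription factor of secretory cells, at 0.92 and Sec24d, a coat protein, at 0.26. Of 8 propeptide cleavage genes 4 were above 0 (median 0.07), with Tll1, a protease for the C-terminal propeptide, at 2.42. The value of Tll1 came with 20.1 CPM in Rar mutant 3, while Rar mutants 1 and 2 (2.01 and 1.59 CPM) lay within the controls (1.20 to 2.68 CPM). Of 11 degradation genes tested 4 were above 0 (median -0.11), with the metalloproteinases Mmp19 at 1.71 and Mmp13 at -2.33. Mmp19 was at 15.2, 39.9 and 12.0 CPM in Rar mutants 1 to 3 and at 4.46 to 9.68 CPM in controls. Mmp13 was at 0.081 to 0.118 CPM in Rar mutants, near the limit of 3 counts, and at 0.290 to 1.04 CPM in controls. Of 5 protease inhibitors 4 were above 0 (median 0.25), led by Timp1 at 1.52 and Timp3 at 0.25. Timp1 was at 40.4, 475.5 and 228 CPM in Rar mutants 1 to 3 and at 32.8 to 194 CPM in controls. Of 8 collagen receptors 5 were above 0 (median 0.22), led by the integrin chains Itga2 at 1.31 and Itga1 at 0.40. Itga2 too was high in Rar mutant 3 (48.9 CPM), with 15.0 and 5.66 CPM in Rar mutants 1 and 2 and 4.94 to 25.4 CPM in controls. Of 12 fibril partners 7 were above 0 (median 0.05), led by Fmod, the fibril-binding proteoglycan fibromodulin, at 0.62 and Sparc at 0.34. Of 16 basement membrane partners 7 were above 0 (median -0.02), with the laminin chain Lama3 at 0.56 and the proteoglycan Agrn at -0.42.

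Between the title-number sets edgeR called 11 of 89 genes in these lists, beside 11.7% of all genes. Plod3 (-0.55), Fkbp10 (-0.60) and Loxl1 (-0.67) were lower in the lower numbers. Sec23a, Mmp16, Ddr2, Itga1, Fn1, Tnxb, Lama2 and Pxdn were higher, led by Tnxb, a tenascin of collagen fibrils (1.87, edgeR adjusted p = 0.0141), and Mmp16, a membrane protease (1.45, adjusted p = 0.0144).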

How the data were processed

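RNA from 10 whole ovaries was sequenced from polyA-selected, stranded libraries. Per the submitters' processing notes, Trimmomatic 0.32, STAR 2.4.2a, SAMtools 1.0 and DESeq2 1.12.3 were used with GRCm38/mm10; the counter, annotation and use of strand are not given in the sources used here. The authors deposited raw counts per gene and FPKM, whose scale matched median-of-ratios size factors within 0.07%. Per the file headers, the authors' table of 185 genes holds mean normalised counts (a signal), log2 fold changes with standard errors, a Wald score, p-values and adjusted p-values. From these, Adamts3 was quoted.

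Counts were tested with edgeR 4.0.16 in R 4.3.3 (quasi-likelihood, robust, TMM, filterByExpr, two-sided), with Benjamini-Hochberg adjustment over all genes and a threshold of 0.05. Standard errors are approximate, from the estimate and its F statistic. All Cre-positive ovaries were fitted with the controls as 2 groups, and the other contrasts as 3 groups, with the title-number set added for its own contrast. Alternatives were DESeq2 1.42.0, its size factors, no filter, an offset for exon length, a title-number term, a replicate block and each library left out. The code was tested on simulated counts. Of 24306 genes, 438 had no symbol, 24090 matched GENCODE M21, and 89 had 0 counts throughout. Values in every library are given for collagen genes called in any comparison, the 2 highest of each of 9 structural classes and the 3 uncalled ones of smallest p. The members and lists were chosen with earlier results of these data known. No 2 libraries of a group agreed within sampling noise.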

Additional observations from a re-analysis of the deposited data

Results flagged for a closer look

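Among 84 tests for a single library far from the others of a group of 5 (each collagen gene in controls and in Cre-positive ovaries), 6 stood apart, where chance gives about 1 in 20. Among controls, control 1 was high for Col4a5 (14.7 FPKM against 6.75 to 9.06) and Col6a5 (4.96 against 0.801 to 1.13), control 2 for Col3a1 (86.8 against 57.3 to 65.8) and control 3 for Col25a1 (0.457 against 0.117 to 0.178). Among Cre-positive ovaries, Dmrt1 het Rar mutant 1 was high for Col2a1 (0.111 FPKM against 0.014 to 0.029) and Dmrt1 het Rar mutant 2 for Col25a1 (0.386 against 0.131 to 0.201). Col25a1, a transmembrane collagen of neurons and muscle, is the 1 gene that stood apart in both groups.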

How the results depend on the processing

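Of the log2 fold changes of named collagen genes under alternatives other than leaving out a library, 276 kept their direction and side of the threshold, 14 passed it, 11 no longer passed it and 1 reversed. The reversal was Col26a1 between the mutant groups, at 0.017 with the title-number term, and leaving out single libraries took it from -0.165 to 0.009 (above 0 without Rar mutant 2 or Dmrt1 het Rar mutant 2). Col27a1 between the title-number sets ranged from -0.219 to 1.222 in the same way, the lowest without control 1. The cause was not tested.

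In all Cre-positive ovaries, 0 collagen genes were called without the filter, with the length offset, with the offset and the title-number term together, with the replicate block, or in the higher title numbers only, and 0 to 1 without single libraries. DESeq2 called 1 in Rar mutants, 2 in Dmrt1 het Rar mutants, 5 between the mutant groups and 9 between the title-number sets, where the length offset left 1. Without single libraries the calls were 0 in Rar mutants, 0 to 3 in Dmrt1 het Rar mutants, 0 to 1 between the mutant groups and 1 to 6 between the sets. Where an arm kept 1 library, it was assumed to vary like the other groups.

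Over all genes, the 21 calls in Cre-positive ovaries became 182 with DESeq2, 40 with the title-number term, 43 with that term and the offset, 142 in the higher numbers and 0 with the block. The 2 calls in Rar mutants became 376 with DESeq2, 14 with the offset, 85 with the title-number term, 77 with both, 142 in the higher numbers and 1 with these groups alone. The 4 in Dmrt1 het Rar mutants became 337 with DESeq2, 1 with the title-number term and 0 with the block. The 0 between the mutant groups became 626 with DESeq2 and 335 without Rar mutant 1. The 2414 between the sets became 3901 with DESeq2, 1130 with the offset and 5442 with a single Cre-positive term.

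The labels do not say whether shared replicate numbers mark pairs. Deviations of same-numbered controls and Rar mutants correlated at 0.466, 0.041 and 0.276, and those of different-numbered ones at -0.46 to 0.27. With the block, Col26a1, the 1 collagen gene called in all Cre-positive ovaries, lost its call (-0.88, edgeR adjusted p = 0.965). Over all genes the 21 calls of that comparison became 0.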
